A study of Homo sapiens with 6 samples.

Results

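The genes described here encode the regulators of calcineurin (RCAN1, RCAN2 and RCAN3), subunits of calcineurin itself (PPP3CA, PPP3CB, PPP3CC and PPP3R1) and transcription factors of the NFAT family (NFATC1, NFATC3 and NFAT5). They were taken by gene name, 10 of the 58825 gene identifiers in the table. Where a name had several identifiers, the one with the highest mean FPKM (a level scaled to gene length and sequencing depth) over the 6 samples was taken, so that identifiers were chosen by mean level alone, but each of these names had 1 identifier. The set was put together with earlier results of these data known, so its values are a description.

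The study asked how maslinic acid (MA), a plant triterpene, acts on pancreatic cancer cells, and sequenced poly(A) RNA of PANC-1, an established line of human pancreatic ductal carcinoma. The MA PANC-1 group held 3 samples exposed to 40 μM MA for 24 h, and the PANC-1 group held 3 samples without MA. All samples grew in the same serum-containing medium. The study's methods call the 3 samples of each group biological replicates and give DMSO, the solvent, as the control treatment of its cell cultures.

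Calcineurin is a phosphatase that is switched on by calcium and calmodulin. It consists of a catalytic A subunit, encoded by PPP3CA, PPP3CB or PPP3CC, and a calcium-binding B subunit, encoded in most tissues by PPP3R1. Active calcineurin removes phosphates from NFATC proteins, which then enter the nucleus and switch on genes, while kinases such as GSK3 and DYRK1A send them back to the cytoplasm. RCAN proteins bind calcineurin and restrain it, and RCAN1 is itself a known NFAT target through an internal promoter. NFAT5 belongs to the same family by its DNA-binding domain but lacks the calcineurin docking region and responds to osmotic stress. In pancreatic carcinoma, NFATC1 and NFATC2 have been studied as growth-promoting factors.

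The samples had between 56978375 (MA PANC-1 replicate 1) and 70275355 (PANC-1 replicate 1) estimated counts, of which the 10 genes held 0.0389% to 0.0486%. MA PANC-1 replicate 2 stood apart from the other libraries on the first principal component (26.4% of the variance), at -73.6 against -29.5 to 44.9. It was the lowest sample of its group for 7 of the 9 genes of the set that could be tested in FPKM, and for 6 in normalised CPM. MA PANC-1 replicate 1 stood apart on the second component (21.4% of the variance), at 72.2 against -43.0 to 7.85, and had the lowest mitochondrial share, 5.48% of counts against 6.33% to 6.80%. The fit was repeated without each library in turn, and values from these fits stand beside several of the genes below.

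The promoters that bear most on this family are shown first, because RCAN1 has an upstream start and an internal start and RCAN3 differed most between the groups. Each window holds 300 bases, 250 before and 50 after the annotated start, from RefSeq on GRCh38.p14, and is printed 5′ to 3′ on the gene's strand. Capitals mark GGAAA, the core that NFAT proteins bind, or its complement TTTCC. The RCAN3 window lies at chr1:24502586-24502885 on the plus strand, the RCAN1 upstream window at chr21:34615064-34615363 and the RCAN1 internal window at chr21:34526773-34527072, both on the minus strand.
RCAN3: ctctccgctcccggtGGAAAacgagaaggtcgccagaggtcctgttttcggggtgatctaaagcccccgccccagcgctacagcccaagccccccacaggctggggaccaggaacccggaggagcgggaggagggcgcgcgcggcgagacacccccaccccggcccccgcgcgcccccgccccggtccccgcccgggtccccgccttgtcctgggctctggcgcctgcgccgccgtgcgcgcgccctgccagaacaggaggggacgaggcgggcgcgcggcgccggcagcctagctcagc
RCAN1 upstream: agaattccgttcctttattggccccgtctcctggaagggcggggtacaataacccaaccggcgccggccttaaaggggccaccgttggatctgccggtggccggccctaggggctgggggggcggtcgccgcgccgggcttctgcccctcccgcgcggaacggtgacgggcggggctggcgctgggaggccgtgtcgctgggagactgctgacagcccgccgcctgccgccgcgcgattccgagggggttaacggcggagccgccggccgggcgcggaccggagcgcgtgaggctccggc
RCAN1 internal: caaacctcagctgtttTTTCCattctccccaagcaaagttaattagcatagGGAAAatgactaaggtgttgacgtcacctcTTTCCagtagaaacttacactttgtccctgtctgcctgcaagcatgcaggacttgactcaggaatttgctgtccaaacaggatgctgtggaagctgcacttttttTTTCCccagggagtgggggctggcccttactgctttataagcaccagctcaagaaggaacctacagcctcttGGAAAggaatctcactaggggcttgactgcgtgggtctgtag
RCAN1 has 3 upstream and 3 internal windows in this source and RCAN3 has 3, of which the most upstream of each kind is printed. The printed internal RCAN1 window held 5 copies of the letters and the other internal windows 1 each. All upstream RCAN1 windows held 0, and each RCAN3 window held 1. Of all 35116 promoter windows of this length, 61.2% held at least 1 copy on either strand and 0.74% held at least 5. The printed internal RCAN1 window was 48.0% G and C, against 74.0% upstream and 76.3% at RCAN3. Such matches describe the sequence and are not binding sites measured here. The deposited values are per gene, so that transcripts from the upstream and the internal RCAN1 starts were not separated.

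RCAN3 showed the largest difference with a narrow interval in the set, nearly a doubling in the MA group, while RCAN1 differed by less than the spread between replicates and RCAN2 was hardly detected. PPP3CA was lower with MA in all 3 samples and PPP3CB by a smaller amount, while PPP3CC and NFATC1 were slightly higher. None of the genes of the set passed the adjusted threshold of edgeR's quasi-likelihood test (0.05, Benjamini-Hochberg over 17774 genes). Of all genes tested, 0.0394% passed it. The only gene of the set to pass in DESeq2 was RCAN3, where 263 of all 17774 genes passed. At an unadjusted p under 0.05 in edgeR, 2 of the 9 tested genes passed, against 11.2% of all genes. By direction these were 1 higher (background 5.37%) and 1 lower (background 5.86%). None reached the study's rule of a 2-fold difference with an unadjusted p under 0.05, which 1.92% of all genes met. RCAN3 lay just under this rule. It met the rule without MA PANC-1 replicate 2 and without PANC-1 replicate 1, with log2 fold changes of 1.02 in both. These were its lowest MA sample and its highest PANC-1 sample, so leaving either out raises the difference and is no test. Leaving out any other single sample gave 0.93 to 0.96.

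RCAN3 encodes the RCAN family member first described through its similarity to the Down syndrome region gene RCAN1, and lies at chr1:24502351-24537019. Its FPKM was 4.63, 3.91 and 4.71 with MA and 2.45, 2.18 and 2.28 without. Every MA sample lay above every PANC-1 sample, and the lowest MA value belonged to replicate 2. The group means were 4.42 ± 0.444 (SD, n = 3) and 2.30 ± 0.137 (SD, n = 3), a ratio of 1.92. The fitted log2 fold change was 0.97 (SE 0.11, 95% interval 0.71 to 1.23), with an adjusted p of 0.0743 in edgeR. This was the 10th smallest p of all genes tested. A change as large in size was seen in 7.61% of the tested genes. The exact two-sided permutation test over the samples gave p = 0.1, the smallest that 3 samples against 3 allow. The estimated counts behind these values were 1152 to 2339 per sample. RCAN3 passed the adjusted threshold in DESeq2 (adjusted p = 1.39e-09), and limma gave an adjusted p of 0.145. In edgeR its adjusted p was 0.0492 when MA PANC-1 replicate 2, its lowest MA sample, was left out, which is no test. Leaving out any other single sample gave edgeR adjusted p of 0.123 to 0.362.

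RCAN1, the best studied calcineurin inhibitor of the family, lies at chr21:34513142-34615113. Its FPKM was 7.68, 6.31 and 7.83 with MA and 8.45, 6.89 and 7.79 without. The groups overlapped, with replicate 2 the lowest in each. The log2 fold change was -0.05 (SE 0.11, 95% interval -0.32 to 0.22; edgeR adjusted p = 0.882), an interval that holds no difference of the size seen for RCAN3. Its sign turned to 0.01 without MA PANC-1 replicate 2 and to 0.02 without PANC-1 replicate 1.

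RCAN2, at chr6:46220736-46491362, had 4, 0 and 8 estimated counts in the MA samples and 0 in each PANC-1 sample. A count of 0 allows up to 3 counts, which is 0.0427 to 0.0505 CPM (counts scaled to library size) in the 4 libraries at 0, by counting error only. With a mean of 0.00742 FPKM it fell below the minimum of 0.1 FPKM and was not tested.

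**Figure D1:**
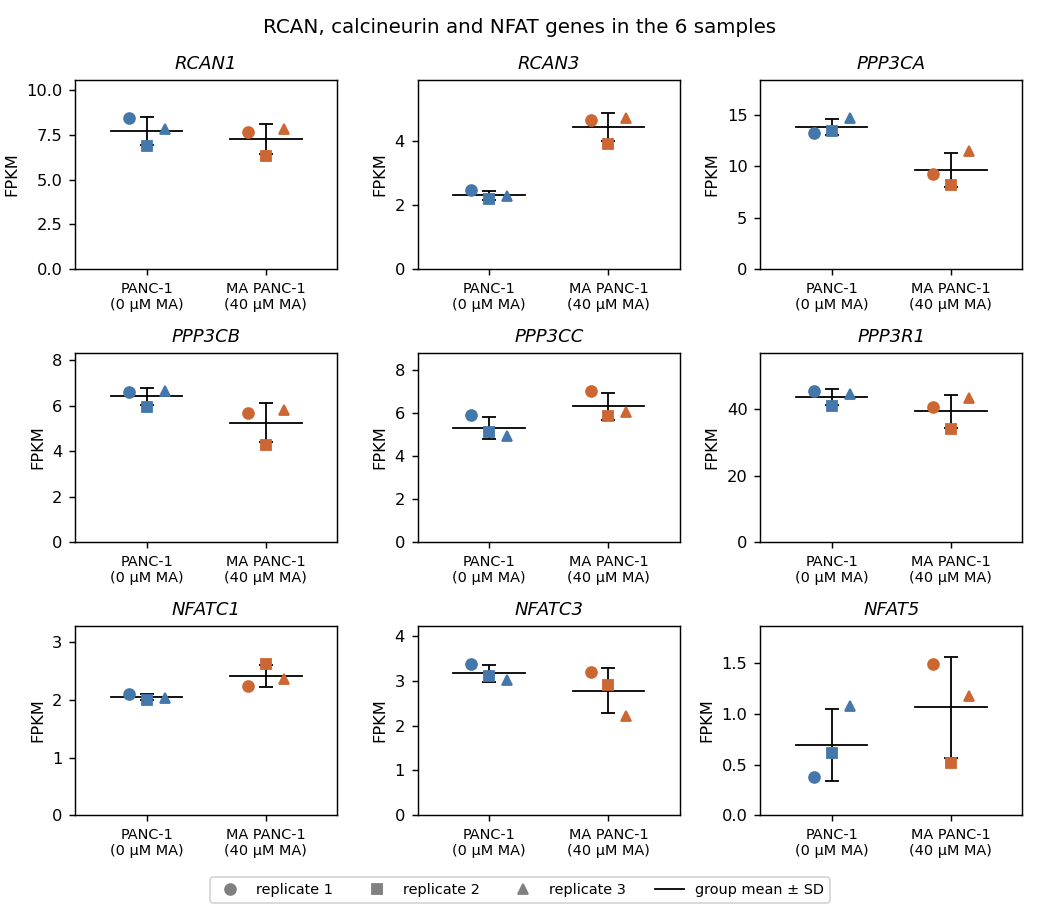
FPKM of the 9 tested genes (y axis, linear from 0, a scale of its own in each panel) in the PANC-1 group and the MA PANC-1 group (x axis); each point is 1 sample, with the marker shape giving the replicate number, and black lines give the group mean ± SD. The MA samples of RCAN3 (3.91 to 4.71) all lie above its PANC-1 samples (2.18 to 2.45), and those of PPP3CA (8.21 to 11.5) all lie below (13.3 to 14.7).

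Because the RCAN1 level was close in both groups and that of RCAN3 was not, the make-up of the family differed. RCAN3 made up 37.6%, 38.2% and 37.5% of the summed RCAN FPKM with MA and 22.5%, 24.0% and 22.6% without. The values within a group lay within 2 percentage points of each other. RCAN1 accordingly made up 62.1% ± 0.305 (SD, n = 3) with MA and 77.0% ± 0.862 (SD, n = 3) without. The ratio of RCAN1 to RCAN3 FPKM was 1.64 ± 0.0258 (SD, n = 3) with MA and 3.34 ± 0.159 (SD, n = 3) without. MA PANC-1 replicate 2, low for both genes in FPKM, did not stand apart in this ratio (1.61 against 1.66 and 1.66).

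The catalytic subunits differed in direction. PPP3CA, the alpha isoform at chr4:101023409-101348278, had FPKM values of 9.28, 8.21 and 11.5 with MA and 13.3, 13.5 and 14.7 without. The groups did not overlap, and replicate 3 was the highest in each. The means were 9.66 ± 1.68 and 13.8 ± 0.797 (SD, n = 3 each), a ratio of 0.699. Its log2 fold change was -0.48 (SE 0.12, 95% interval -0.77 to -0.19) with an edgeR adjusted p of 0.388, and a change as large in size was seen in 21.7% of the tested genes.

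PPP3CB, the beta isoform at chr10:73436428-73496024, had 5.70, 4.27 and 5.82 FPKM with MA and 6.60, 5.97 and 6.67 without. All MA samples lay below the PANC-1 samples, 2 of them by a small margin. The log2 fold change was -0.25 (SE 0.13, 95% interval -0.55 to 0.04; edgeR adjusted p = 0.485), and -0.16 without MA PANC-1 replicate 2. PPP3CC, the gamma isoform, known for its high level in testis, had 7.06, 5.89 and 6.04 FPKM with MA and 5.92, 5.12 and 4.93 without. On the FPKM scale the lowest MA value lay just under the highest PANC-1 value, while the normalised CPM did not overlap. Its log2 fold change was 0.29 (SE 0.13, 95% interval -0.03 to 0.60; edgeR adjusted p = 0.471).

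PPP3CA held 45.3% ± 3.60 of the summed catalytic FPKM with MA and 54.1% ± 2.36 without (SD, n = 3 each). The share of PPP3CC was 30.0% ± 3.57 and 20.8% ± 2.13, and that of PPP3CB was 24.7% ± 1.33 and 25.1% ± 0.685, in the same order. PPP3CA was thus the most abundant catalytic subunit in every sample, and PPP3CC and PPP3CB exchanged places between the groups. The summed catalytic FPKM was 21.3 ± 2.59 with MA and 25.6 ± 0.911 without.

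PPP3R1, the regulatory B subunit at chr2:68178857-68256237, was the most abundant gene of the set in every sample. Its FPKM was 40.7, 33.8 and 43.4 with MA and 45.5, 40.9 and 44.5 without, and the groups overlapped. The log2 fold change was -0.12 (SE 0.10, 95% interval -0.34 to 0.11; edgeR adjusted p = 0.645), and -0.06 without MA PANC-1 replicate 2. Per unit of summed catalytic FPKM, PPP3R1 stood at 1.85 ± 0.00735 with MA and 1.71 ± 0.0511 without (SD, n = 3 each). The summed RCAN FPKM per unit of catalytic FPKM was 0.559, 0.556 and 0.538 with MA and 0.423, 0.369 and 0.383 without. These ratios did not overlap between the groups and, as scores over genes of the set, were not tested.

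**Figure D2:**
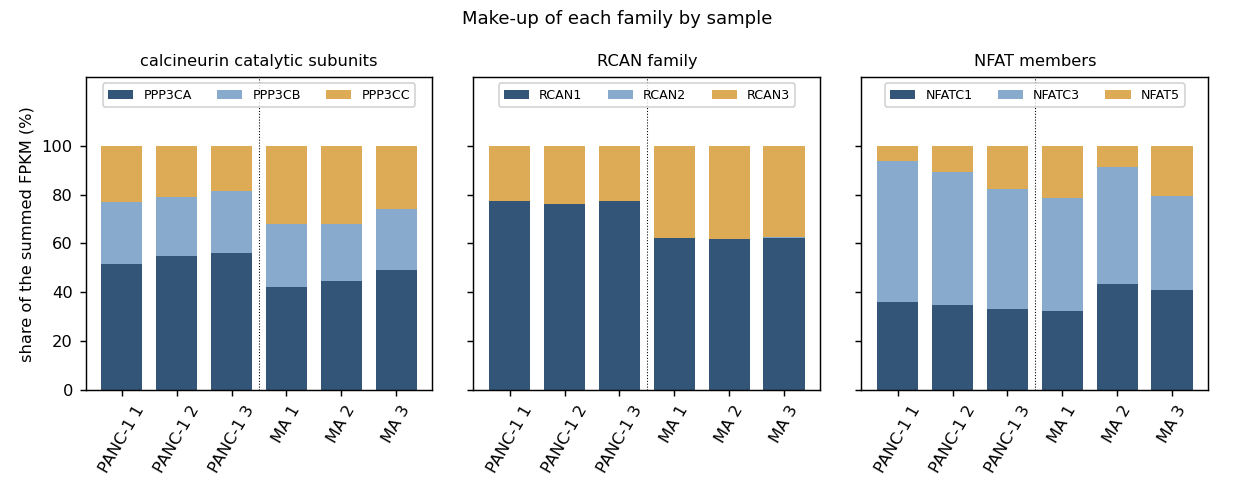
Share of the summed FPKM (y axis, percent) held by each gene of the catalytic calcineurin subunits, the RCAN family and the NFAT genes in each of the 6 samples (x axis); a dotted line separates the PANC-1 samples from the MA samples. The RCAN3 block covers 37.5% to 38.2% of each MA bar and 22.5% to 24.0% of each PANC-1 bar, while the NFAT5 block varies from 6.46% to 21.5% without separating the groups.

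Of the NFAT genes, NFATC1 at chr18:79395856-79529325, a calcineurin-dependent factor of lymphocytes, osteoclasts and several carcinomas, had 2.24, 2.63 and 2.36 FPKM with MA and 2.10, 2.00 and 2.04 without. Every MA sample lay above the highest PANC-1 sample. The log2 fold change was 0.28 (SE 0.13, 95% interval -0.02 to 0.58; edgeR adjusted p = 0.465). NFATC1 was the only tested gene of the set for which MA PANC-1 replicate 2 was the highest of its group, and without that sample its log2 fold change was 0.17.

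NFATC3, a related calcineurin-dependent factor at chr16:68084751-68226934, had 3.19, 2.90 and 2.22 FPKM with MA and 3.38, 3.10 and 3.01 without. The groups overlapped and MA PANC-1 replicate 3 was the lowest of all. The log2 fold change was -0.15 (SE 0.16, 95% interval -0.53 to 0.23; edgeR adjusted p = 0.736), and it was 0.00 when that sample was left out, -0.24 without MA PANC-1 replicate 1 and -0.22 without MA PANC-1 replicate 2.

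NFAT5, at chr16:69565094-69704666, had 1.49, 0.519 and 1.18 FPKM with MA and 0.379, 0.618 and 1.08 without. The samples of both groups were interspersed, and its fitted change had the largest SE of the 9 tested genes. Its log2 fold change of 0.64 had an interval from -0.44 to 1.72 (SE 0.46; edgeR adjusted p = 0.601), and it ranged from 0.32 (without MA PANC-1 replicate 1) to 1.1 (without PANC-1 replicate 3) as single samples were left out, with 0.34 without PANC-1 replicate 1. The 6-sample interval includes both 0 and a difference of the size fitted for RCAN3.

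**Figure D3:**
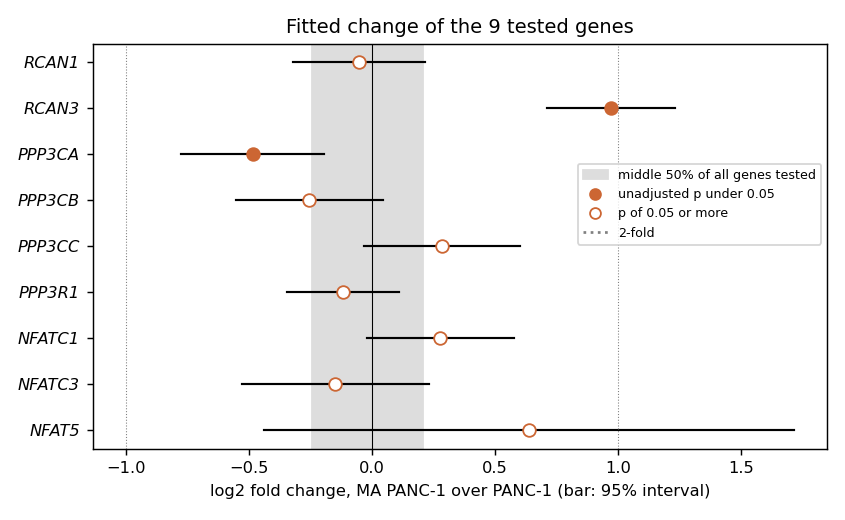
Fitted log2 fold change of the 9 tested genes, MA PANC-1 over PANC-1 (x axis), with bars for the 95% interval and a grey band for the middle 50% of all genes tested (-0.25 to 0.21). The RCAN3 interval (0.71 to 1.23) lies above the band and that of PPP3CA (-0.77 to -0.19) reaches into it; NFAT5 has the widest interval.

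Of the 9 tested genes, 4 were higher and 5 lower with MA, with a median log2 fold change of -0.05 against 0.00 for all genes tested. The groups did not overlap in normalised CPM for RCAN3, PPP3CA, PPP3CB, PPP3CC and NFATC1, 5 of 9, where 20.6% of all genes tested did not overlap. In level, the order in the PANC-1 group was PPP3R1, PPP3CA, RCAN1, PPP3CB, PPP3CC, NFATC3, RCAN3, NFATC1, NFAT5 and RCAN2, and no neighbours in this order overlapped in FPKM. In the MA group RCAN3 stood above NFATC3 and PPP3CC above PPP3CB. There, the samples of RCAN1 and PPP3CC, of PPP3CB and RCAN3, and of NFATC3 and NFATC1 overlapped. Within each MA sample, however, RCAN1 stood above PPP3CC and PPP3CB above RCAN3, and the order differed between samples for NFATC3 and NFATC1 alone. In these bulk samples, fewer cells that carry a transcript and less of it per cell cannot be told apart.

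**Figure D4:**
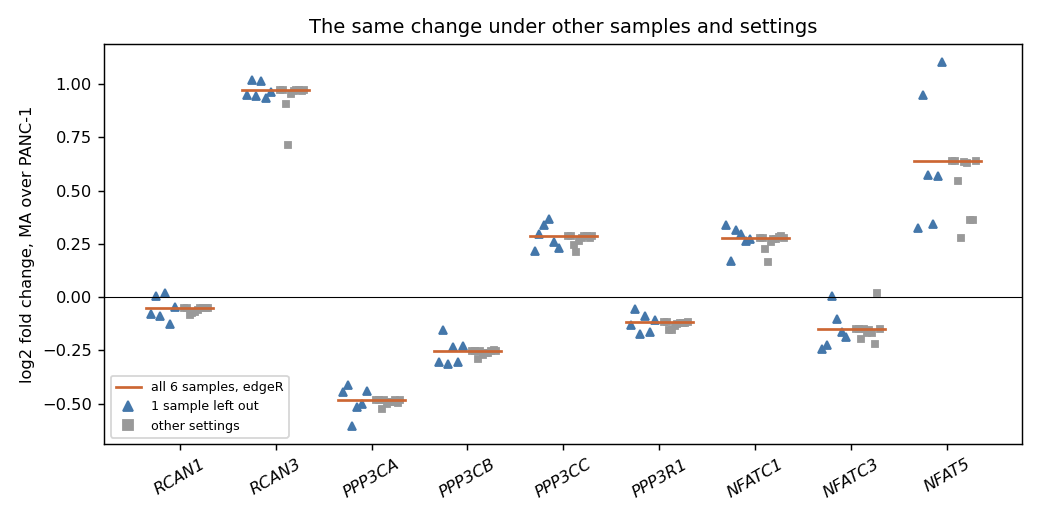
Fitted log2 fold change, MA over PANC-1 (y axis), of each tested gene (x axis) with all 6 samples (line), with 1 sample left out (triangles) and under other settings (squares). RCAN3 stays between 0.71 and 1.02 and PPP3CA between -0.60 and -0.41, while RCAN1 and NFATC3 cross 0 and NFAT5 spreads from 0.28 to 1.1.

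Several of these genes share their interval with another annotated gene, which bears on how their reads were assigned, since the strand setting of the counting is not given in the sources used here. The 3′ end of NFATC3 overlaps, on the opposite strand, an antisense RNA of clone AC020978 (ENSG00000262160, chr16:68225969-68229145). It had 380, 86 and 542 estimated counts with MA and 1, 7 and 3 without. Every MA sample lay far above every PANC-1 sample. Within the MA group the order did not mirror that of NFATC3: replicate 3, with the most antisense counts, had the lowest NFATC3 value, but replicate 1, with 380, had the highest and replicate 2, with 86, lay between them. Its mean was 1.52 FPKM with MA and 0.0130 without, so that it reached the minimum of 0.1 FPKM through the MA samples alone. No fold change or p-value is given, since the PANC-1 group held very few counts and the filter was passed through the high group. With the counts of overlapping genes on both strands added to NFATC3, its own log2 fold change was 0.02. With those on the same strand alone it was -0.22. A same-strand RNA at that end (ENSG00000263276, AC020978) had 36, 101 and 212 counts with MA and 220, 282 and 263 without (log2 fold change -0.99, SE 0.56, edgeR adjusted p = 0.518, with -0.57 without MA PANC-1 replicate 1 and -1.76 without MA PANC-1 replicate 3).

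A same-strand RNA inside the last part of NFAT5 (AC012321, ENSG00000260772, chr16:69703065-69704652) had 1, 34 and 36 counts with MA and 33, 35 and 510 without, so that PANC-1 replicate 3 alone was high. That sample also had the highest NFAT5 value of its group. Summing NFAT5 with its same-strand neighbours gave a log2 fold change of 0.36. Opposite the start of PPP3CA, AP001816 had 274, 214 and 161 counts with MA and 349, 515 and 321 without. It was lower with MA like PPP3CA itself (log2 fold change -0.70, SE 0.29, edgeR adjusted p = 0.441). The groups were separate by a small margin, 4.80 CPM in MA PANC-1 replicate 1 against 4.89 in PANC-1 replicate 1. Its log2 fold change was -0.47 without PANC-1 replicate 2 and -0.94 without MA PANC-1 replicate 1. RCAN3AS, opposite RCAN3, stood at 0.251 FPKM with MA and 0.202 without, far below RCAN3, with a log2 fold change of 0.34 (edgeR adjusted p = 0.927). The opposite-strand PPP3CB-AS1 had -0.16 and 2 AC017083 genes at PPP3R1 had 0.63 (ENSG00000273064) and -0.35 (ENSG00000273398) as log2 fold changes, all with overlapping groups. Without PANC-1 replicate 2 the sign turned for RCAN3AS (-0.25), PPP3CB-AS1 (0.29) and ENSG00000273398 of AC017083 (0.10), and ENSG00000273064 stood at 0.41. Without PANC-1 replicate 3 the values were 1.28 for RCAN3AS, -0.41 for PPP3CB-AS1 and 0.93 for ENSG00000273064. ENSG00000273398 reached -0.89 without MA PANC-1 replicate 3. AC037459, opposite PPP3CC, stood at a mean of 0.0516 FPKM and was not tested.

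The rest of the pathway was described with 7 lists of 83 genes in all, of which 66 were tested. Of these, 38 were higher and 28 lower with MA, and their median log2 fold change was 0.03. None passed the adjusted threshold in edgeR or limma. In DESeq2 1 passed (NFATC2, adjusted p = 0.0402), where 263 of all 17774 genes did. In edgeR, 9 (13.6%) had an unadjusted p under 0.05, against the 11.2% of all genes given above. The groups did not overlap for 13 (19.7%), against 20.6% of all genes. Both shares lie near the background, but the first depended on the setting: it was 22.7% against 12.5% of all genes with the replicate number as a block, 25.8% against 18.1% without MA PANC-1 replicate 3, and 4.55% against 6.76% without PANC-1 replicate 3.

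Upstream of calcineurin, 15 of 17 genes of calcium entry and release were tested, 9 higher and 6 lower. ITPR2, a calcium release channel of the endoplasmic reticulum, had 1.51, 0.966 and 1.57 FPKM with MA and 2.16, 2.06 and 2.01 without (log2 fold change -0.60, SE 0.17, edgeR adjusted p = 0.388). CALM3, one of the genes that encode calmodulin, had 30.9, 35.1 and 32.5 FPKM with MA and 28.5, 21.7 and 24.5 without (log2 fold change 0.44, SE 0.13, edgeR adjusted p = 0.388). The groups were separate for both. The most abundant gene of the list, CALM2, which encodes the same calmodulin protein, was at 149 ± 31.9 FPKM with MA and 165 ± 27.5 without, with overlapping groups.

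Among other calcineurin regulators, anchors and immunophilins, 11 of 17 were tested, 8 higher and 3 lower. None had an unadjusted p under 0.05, where 11.2% of all genes tested did. PPIA, cyclophilin A, through which ciclosporin blocks calcineurin, was the most abundant at 304 ± 22.0 FPKM with MA and 293 ± 12.1 without. PPP3R2, the B subunit gene of testis, had no count in any sample.

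Of the kinases and scaffolds that act on NFAT, 14 of 16 were tested, 7 in each direction. MAPK8 (JNK1), which phosphorylates NFAT proteins, had 1.65, 1.42 and 1.75 FPKM with MA and 2.10, 2.09 and 2.26 without (log2 fold change -0.38, SE 0.12, edgeR adjusted p = 0.39). CSNK1D, a casein kinase 1 isoform, had 12.0, 13.1 and 10.3 FPKM with MA and 9.51, 9.60 and 9.94 without (log2 fold change 0.32, SE 0.13, edgeR adjusted p = 0.435, with 0.20 without MA PANC-1 replicate 2). In both genes the groups were separate. GSK3A, the most abundant of the list, was at 21.4 ± 3.48 FPKM with MA and 18.1 ± 1.03 without, with overlapping groups.

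NFATC2, the other calcineurin-dependent NFAT gene with a measurable level, had 0.669, 0.672 and 0.658 FPKM with MA and 1.06, 0.961 and 1.08 without. The groups were separate and the MA samples nearly equal. Its log2 fold change was -0.60 (SE 0.15, edgeR adjusted p = 0.388), opposite in sign to that of NFATC1. NFATC2IP, which binds NFATC2, had a log2 fold change of 0.02 with overlapping groups, and -0.03 without PANC-1 replicate 1.

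All 12 other calcineurin substrates were tested, 8 higher and 4 lower. MEF2C, a transcription factor of muscle and neurons, had 0.441, 0.269 and 0.504 FPKM with MA and 0.710, 0.601 and 0.621 without (log2 fold change -0.65, SE 0.24, edgeR adjusted p = 0.431), with separate groups. ELK1, the most abundant of the list and a transcription factor downstream of ERK, was at 32.4 ± 3.65 FPKM with MA and 29.3 ± 0.379 without, with overlapping groups.

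Genes known as targets of calcineurin and NFAT, mostly cytokines, were measurable for 5 of 10. The groups overlapped for all 5, where 20.6% of all genes tested did not overlap. LIF, the most abundant, was at 15.6 ± 1.9 FPKM with MA and 16.5 ± 0.764 without (log2 fold change -0.05, SE 0.10, edgeR adjusted p = 0.873, with 0.01 without MA PANC-1 replicate 2). The median log2 fold change of the 5 genes was -0.02. Of the osmotic targets of NFAT5, 7 of 8 were tested, 3 higher and 4 lower, with a median of -0.09. SLC38A2, an amino acid transporter and the most abundant, was at 46.8, 39.1 and 56.8 FPKM with MA and 60.3, 56.2 and 58.1 without (log2 fold change -0.26, SE 0.12, edgeR adjusted p = 0.465, with -0.17 without MA PANC-1 replicate 2).

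**Figure D5:**
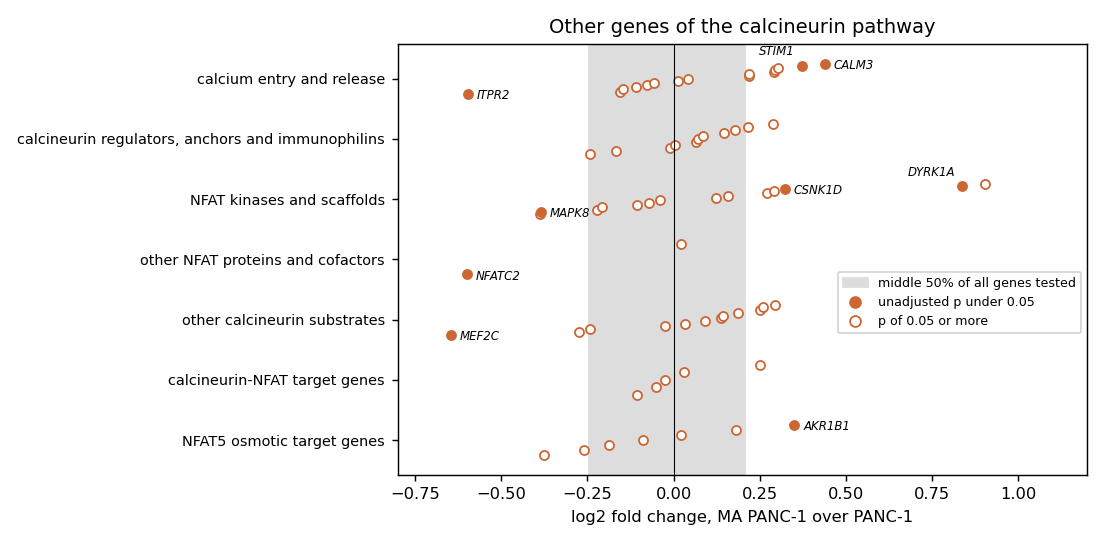
Fitted log2 fold change, MA over PANC-1 (x axis), of the 66 tested genes of the 7 pathway lists (rows); filled points, labelled by gene, have an unadjusted p under 0.05 and the grey band is the middle 50% of all genes tested. The 9 filled points lie on both sides of 0, with 5 higher and 4 lower, and 3 of them (STIM1, DYRK1A and AKR1B1) had overlapping groups.

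The labelled cell type was checked with its markers. The keratins KRT8 (183 ± 41.1 FPKM with MA, 213 ± 10.4 without) and KRT18 (295 ± 29.1 and 325 ± 12.3) and vimentin, VIM (569 ± 56.1 and 665 ± 77.5), were abundant in every sample, while KRT7 was at 1.57 ± 0.188 and 2.03 ± 0.232 and KRT19 was near 0 (0.0866 and 0.0199). The 4 of these that were tested had overlapping groups, where 20.6% of all genes tested did not overlap. Of the markers of other cells, CD3E, PRSS1 and INS had no count in any sample, PTPRC had 8 counts in 1 sample, and PECAM1 was at 0.0275 FPKM or less in every sample.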

How the data were processed

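RNA of 6 PANC-1 samples was analysed, 3 with 40 μM MA for 24 h and 3 without, grouped by the series' labels. The libraries were poly(A)-selected, made with dUTP and sequenced as read pairs. Per the submitters' processing notes the tools were cutadapt 1.9, HISAT2 2.0.4, StringTie 1.3.4d, edgeR and DESeq2, with no roles given. The deposited table holds, for each gene, an FPKM value normalised by the authors to gene length and depth (0.0001 where a gene has no reads) and an estimated count, a whole number that is not normalised. Of 58825 identifiers, 30337 had no count. Positions are on GRCh38, and 93.5% of identifiers lie within their GENCODE 29 interval. The annotation release used in counting is not given in the sources used here.

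From these, the 17774 genes whose mean FPKM reached 0.1 were tested with edgeR 4.0.16 (quasi-likelihood, TMM, R 4.3.3) on the estimated counts, with Benjamini-Hochberg adjustment over all of them and a common biological coefficient of variation of 0.307. Overlap between groups was judged in TMM-normalised CPM, and levels between genes were compared in FPKM. The procedure was tested on simulated data. Total counts per sample lay between 56978375 and 70275355. They outnumber the reads that were sequenced, so that halved counts were tried, an alternative chosen after seeing the data, and precision was judged from the replicates. Floors cover counting error only.

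The gene set and the lists were chosen with earlier results of these data known. Genes were named by a fixed rule: all 10 genes of the set, the most abundant gene of each list and at most 4 per list with an unadjusted p under 0.05 and no overlap, overlapping genes whose counts averaged 10 or more, the 3 genes closest to RCAN1, and the cell type markers. PPP3R2, STIM1, DYRK1A, AKR1B1 and MAPK14 fall outside this rule and were chosen after their values were seen. Alternatives were RLE factors, DESeq2 1.42.0, limma 3.58.1 on log2(FPKM + 0.1) or log2(FPKM + 1), other minimum levels, a replicate block, sums with overlapping genes, and each sample left out.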

Additional observations from a re-analysis of the deposited data

How the results depend on the processing

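The 7 genes called among all 17774 became 263 with DESeq2, 12 at a mean FPKM of at least 1 and between 3 (without PANC-1 replicate 2; 4 without MA PANC-1 replicate 1) and 24 (without MA PANC-1 replicate 2) when single samples were left out, while the other settings gave 7 to 9 except the replicate block. RCAN3 kept its sign and an unadjusted p under 0.05 in all 16 alternatives, with an adjusted p from 1.39e-09 to 0.362. It passed the adjusted threshold with DESeq2 (log2 fold change 0.97) and at a mean FPKM of at least 1 (0.95, adjusted p = 0.0476). It also passed without MA PANC-1 replicate 2, its lowest MA sample, and leaving out single samples gave 0.93 to 1.02. Its smallest value, 0.71, came from limma with a pseudocount of 1. PPP3CA kept its sign and an unadjusted p under 0.05 in all 16, with adjusted p from 0.0616 to 0.729. RCAN1 ranged from -0.13 to 0.02 when single samples were left out, turning sign without MA PANC-1 replicate 2 (0.0063) and without PANC-1 replicate 1 (0.0169). NFATC3 ranged from -0.24 to 0.0035, turning sign without MA PANC-1 replicate 3. It was at 0.0211 when summed with overlapping genes on either strand and at -0.218 with those on the same strand alone. The other 5 tested genes of the set kept their sign in every alternative run, 16 for each but NFAT5, which was not tested at a mean FPKM of at least 1. NFAT5 had an unadjusted p of 0.049 without PANC-1 replicate 3. Of the 66 pathway genes tested, 9 had an unadjusted p under 0.05, and between 3 (4.55%, against 6.76% of all genes, without PANC-1 replicate 3) and 17 (25.8%, against 18.1%, without MA PANC-1 replicate 3) when single samples were left out, with 5 (7.58%, against 6.63%) without PANC-1 replicate 1. The RCAN3 share differed by 14.7 percentage points between the groups (14.5 to 15.2 with single samples left out, 14.9 on counts). The causes of these changes were not tested.

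The groups share replicate numbers 1 to 3. Same-numbered samples deviated together with correlations of 0.0294, 0.0502 and 0.0724, each the highest of its row and column, a hint from the data rather than from the design. With the replicate number as a block, 0 genes passed the adjusted threshold of edgeR (2215 had an unadjusted p under 0.05), RCAN3 had an adjusted p of 0.285 and 15 pathway genes had an unadjusted p under 0.05 (22.7%, against 12.5% of all genes).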

Other observations

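The genes with the profile most like RCAN1 over the 6 samples, by the root mean square difference of centred log2 CPM among 11469 genes whose mean FPKM reached 1, were NUP160 (0.0255), RFC3 (0.0285) and CPSF3 (0.0296). NUP160 encodes a nuclear pore protein, RFC3 a subunit of the clamp loader of DNA replication and CPSF3 the nuclease of mRNA 3′ end cleavage. With 6 samples this is a description.

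MAPK14, which encodes the kinase p38 alpha and was singled out after its values were seen, had 7.48, 7.07 and 8.21 FPKM with MA and 7.49, 2.57 and 2.40 without. PANC-1 replicate 1 was thus at the level of the MA samples, and the log2 fold change was 0.90 (SE 0.42, edgeR adjusted p = 0.469). It was 1.64 without that sample, 0.65 without PANC-1 replicate 2 and 0.63 without PANC-1 replicate 3. Leaving out single MA samples gave 0.86 to 0.93. Because PANC-1 replicate 1 was the sample that departed from the pattern, the fit without it is no test.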
